A study of Mus musculus with 491 samples.

Results

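The genes described here are the nuclear-encoded genes of the mitochondrial respiratory chain and ATP synthase, taken as every gene whose symbol starts with Nduf, Uqcr, Atp5, Sdh with a letter from a to d, or Cox4 to Cox8. The rule found 86 of the 19494 genes with a usable row: 7 core subunits of complex I, 29 other complex I subunits, 4 complex I assembly factors, 4 genes of complex II, 8 of complex III, 20 of complex IV and 14 of complex V. The prefix for complex I also brings in Ndufa4 and Ndufa4l2, which are counted here with complex IV because NDUFA4 is a subunit of cytochrome c oxidase. Mitochondrially encoded subunits are not members.

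Complexes I to IV pass electrons from NADH and succinate to oxygen and pump protons across the inner mitochondrial membrane, and complex V uses the proton gradient to make ATP. Most subunits are made from nuclear genes that are expressed in nearly every cell, while complex IV has paired genes of which the second form is known from muscle, lung, testis or hypoxic cells. Neural progenitors are commonly described as glycolytic and differentiated neurons as reliant on oxidative phosphorylation, so the level of these genes from progenitor to neuron is the comparison of interest.

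Each of the 491 samples is 1 tdTomato+ cell, sorted from otic vesicle and periotic tissue of mouse embryos at stage E10.5. All embryos had the genotype Pax2-Cre/+;Ai14-tdTomato/+, in which Cre driven by Pax2 sequences switches on a red reporter, so that cells with a history of Pax2-Cre and their descendants are marked and every group carries both alleles. Replicate 1 holds 237 cells on plates 1 to 3 and replicate 2 holds 254 cells on plates 4 to 6. The labels do not say what separates the replicates (embryos, litters or sorts). The p-values measure how unevenly differences between classes repeated over these 2 sets of plates, over all classes together, and that spread may be technical.

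No label gives a cell type. Cells were clustered on 87 marker genes, and clusters were named "-like" from those markers: 140 otic epithelium-like cells (the wall of the otic vesicle), 36 early neuroblast-like cells (Neurod1 and Eya2 among the leading genes), 47 differentiating neuron-like cells (Stmn2, Tubb3 and Isl1), 126 neural tube progenitor-like, 41 surface ectoderm-like and 23 mesenchyme-like cells. Cluster 9, with 59 cells, had the neuronal genes Nefl, Nefm and Tubb3 among its leading genes, beside Chrna3 and Tlx2, and kept its number. Its summed FPKM in replicates 1 and 2 was 253.6 and 307.1 over the epibranchial neuron markers. It was 47.27 and 58.39 over the hindbrain neuron markers, and 140.1 and 166.2 over the neural tube progenitor markers. Whether it mixes kinds of neuron was not tested. Cluster 3, with 19 cells, matched no list. Depth in reads is unknown. Rare transcripts were shared between linked rows of wells beyond the background of unlinked rows, and 337 of the 491 cells lay in a well with such a possible source. Results that turn on low values are therefore given for the other 154 cells too.

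RefSeq promoter windows on GRCm38.p6, from 250 bases before to 50 bases after the start, were matched by symbol for 71 of the 86 members. The 5 windows below belong to the members that fell in a neuronal class in the comparisons described further on, and they are shown so that their upstream sequence can be read beside those values. Each line gives the 200 bases before the start, 5′ to 3′. Capitals, in the Atp5g2 line, mark a match to the 10-base palindromic site of nuclear respiratory factor 1, a regulator of respiratory chain genes. The places are chr13:73328483-73328682 (minus strand) for Ndufs6, chr2:10080511-10080710 (minus strand) for Atp5c1, chr7:3617173-3617372 (plus strand) for Ndufa3, chr13:74350241-74350440 (minus strand) for Sdha and chr15:102671048-102671247 (minus strand) for Atp5g2. The RefSeq start used for Atp5g2 lies 1305 bases from the GENCODE start of the gene.
Ndufs6: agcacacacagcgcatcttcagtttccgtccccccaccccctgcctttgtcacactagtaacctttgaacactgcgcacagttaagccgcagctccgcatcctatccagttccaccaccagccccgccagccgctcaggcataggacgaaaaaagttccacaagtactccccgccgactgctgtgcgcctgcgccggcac
Atp5c1: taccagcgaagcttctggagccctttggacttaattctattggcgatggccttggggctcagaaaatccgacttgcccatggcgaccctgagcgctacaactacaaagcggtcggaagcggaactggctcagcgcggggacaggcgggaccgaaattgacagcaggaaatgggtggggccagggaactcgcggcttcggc
Ndufa3: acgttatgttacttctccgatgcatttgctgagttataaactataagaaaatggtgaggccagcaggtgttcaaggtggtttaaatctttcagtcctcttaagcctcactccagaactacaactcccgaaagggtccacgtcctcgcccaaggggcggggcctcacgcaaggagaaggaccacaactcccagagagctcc
Sdha: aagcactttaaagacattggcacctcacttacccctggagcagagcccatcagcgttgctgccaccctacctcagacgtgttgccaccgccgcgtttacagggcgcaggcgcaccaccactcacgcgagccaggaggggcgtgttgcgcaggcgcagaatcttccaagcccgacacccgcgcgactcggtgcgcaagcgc
Atp5g2: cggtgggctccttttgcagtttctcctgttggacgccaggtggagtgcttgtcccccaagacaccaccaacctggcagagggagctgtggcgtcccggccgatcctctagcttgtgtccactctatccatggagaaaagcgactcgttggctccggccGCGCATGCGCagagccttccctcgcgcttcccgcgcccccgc

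Of these 5, the Atp5g2 window alone held the letters of that palindrome. Over the whole 300-base windows they were in 6 of 71 members (8.45%: Atp5g2, Atp5k, Cox6a1, Ndufa11, Ndufaf4 and Uqcrc1) and in 1.34% of the windows of all 15341 genes with one. The ETS core CCGGAAG, searched on both strands, was in 16 of 71 members (22.5%) and in 11.9% of all windows. AAGATGGCG, the letters bound by YY1, was in 6 members (8.45%), always after the start and Ndufs6 among them, and in 1.98% of all windows. No match of one motif overlapped a match of another in the members' windows. These are letter matches, not measured binding.

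The mean level of the members lay between 5.62 and 6.32 over the classes and replicates, on the log2(FPKM + 1) scale. In a cell, FPKM is a length-scaled share of its library, so total RNA per cell is not measured by it. Averaged over the 86 members, log2(FPKM + 1) was 5.96 in replicate 1 and 6.04 in replicate 2 of otic epithelium-like cells, 5.91 and 5.92 in early neuroblast-like cells, 5.79 and 5.98 in differentiating neuron-like cells, and 5.79 and 5.84 in cluster 9. Early neuroblast-like cells and cluster 9 lay below otic epithelium-like cells in both replicates, by differences of -0.05 and -0.12 for the first and -0.17 and -0.20 for the second, while the 2 replicates of differentiating neuron-like cells lay on either side of the early neuroblast-like values. These small differences turned sign under some settings: that of early neuroblast-like cells was 0.03 in the cells without a linked source well and 0.01 in the cells between the quartiles of genes found, and that of cluster 9 was 0.02 on the log2 of the mean FPKM. Taken over all cells, mesenchyme-like cells had the highest mean (6.11), followed by otic epithelium-like (6.002), cluster 3 (5.96), early neuroblast-like (5.92), differentiating neuron-like (5.89), cluster 9 (5.81), surface ectoderm-like (5.81) and neural tube progenitor-like cells (5.71). Neighbours in that order were no further apart than the mean difference between the replicates of a class, 0.127, while its ends were. Neural tube progenitor-like cells (5.62 and 5.79) lay below otic epithelium-like cells in both replicates. The median standard deviation (SD) over the cells of a class and replicate was 0.455.

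The share of a cell's summed FPKM taken by the 86 members gave another order. It was 4.04% and 4.22% in otic epithelium-like cells (replicates 1 and 2), 3.96% and 3.96% in early neuroblast-like cells, 3.79% and 4.096% in differentiating neuron-like cells, 4.17% and 3.95% in cluster 9 and 3.95% and 4.12% in neural tube progenitor-like cells. On this scale the neural tube cells, lowest by mean log2 level, lay among the others. The mean log2 level moved with the number of genes found per cell, which was 4216 on average in neural tube progenitor-like cells and 4781 in otic epithelium-like cells: over the 16 class-by-replicate means Pearson's r was 0.729 for the log2 level and -0.056 for the share of FPKM. The part of gene detection in the differences of mean level was not tested.

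**Figure D1:**
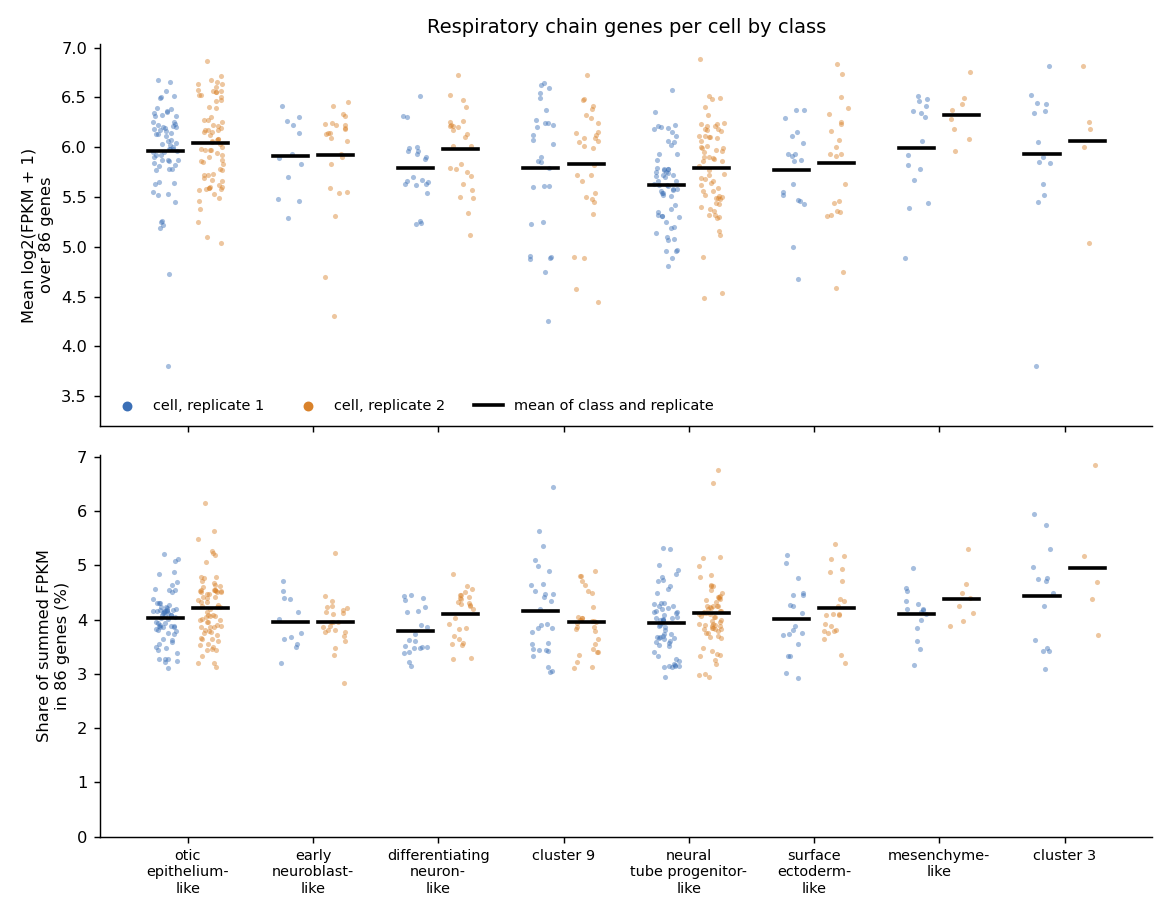
Mean log2(FPKM + 1) over the 86 members in each cell (top) and the members' share of the summed FPKM in percent (bottom, axis from 0), by class. Points are cells, coloured by replicate, and bars are class-by-replicate means, which lie between 5.62 and 6.32 above and between 3.79% and 4.96% below.

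The order of abundance of the members was similar in most classes. FPKM is scaled to transcript length, so levels can be set beside each other across genes. Over the 67 members found (FPKM of 1 or more) in at least 90% of cells, Pearson's r across genes between the mean log2 levels of otic epithelium-like cells and another class was 0.969 for early neuroblast-like cells, 0.955 for differentiating neuron-like cells and 0.941 for cluster 9, from 0.95 to 0.968 for the neural tube, surface ectoderm and mesenchyme-like classes, and lowest, 0.895, for the 19 cells of cluster 3, beside 0.977 between the replicates of the otic epithelium-like class. Genes are not independent replicates, and these values are descriptions. The SD of a gene's mean level over the 8 classes had a median of 0.275 over these 67 members and of 0.389 over the other 972 genes found as widely; it was above 0.5 for 7.46% of the members and 29.9% of the other genes.

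Levels differed more between genes of a complex than between classes. In complex V, the ATP synthase, Atp5b, which encodes the catalytic beta subunit, had the highest mean FPKM over all cells of any member, 604, and Atp5h, a subunit of the peripheral stalk, the lowest of its complex, 81.1. Cox4i1, the common form of subunit 4 of cytochrome c oxidase, stood at 593. In complex III, which passes electrons to cytochrome c, the core protein Uqcrc1 stood at 364.5 and its partner Uqcrc2 at 98.65. In complex II, which oxidises succinate, the iron-sulfur subunit Sdhb stood at 174.4 and the membrane anchor Sdhc at 37.98. Among the core subunits of complex I, which carry its flavin and iron-sulfur clusters, Ndufs7 stood at 121.2 and Ndufs3 at 31.28. Among the other complex I subunits Ndufb8 stood at 455.6 and Ndufa11 at 23.32. The complex I assembly factors, which are not part of the finished enzyme, were lower, from 13.06 for Ndufaf3 to 52.5 for Ndufaf2. Many of these genes have processed pseudogenes, and the labels do not say how reads shared with them were counted.

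The step from otic epithelium-like to early neuroblast-like cells gave no called member. Genes were tested with limma on class-by-replicate means, with class and replicate as terms, and called at an adjusted p below 0.05 after Benjamini-Hochberg adjustment over the 10178 genes tested, of which 82 were members. Limma called 0 of 82 members, where 3.67% of all genes tested and 2.21% of the genes found in at least 90% of cells were called. At an unadjusted p below 0.05 there were 2 members (2.44%, against 13.1% of all genes tested), Ndufb8 and Ndufa6, both accessory subunits of complex I, named after their values were seen. Among genes found in at least 90% of cells, 2.99% of the members and 9.24% of all genes had such a p. Ndufb8 differed by -0.41 (SE 0.157, adjusted p = 0.233) and Ndufa6 by -0.68 (SE 0.297, adjusted p = 0.331). The median log2 difference was -0.09 over the members and -0.10 over all genes tested. Over the genes found in at least 90% of cells it was -0.086 for the 67 members and 0.0045 for all 1039.

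The absence of calls does not show equal levels, and the 95% intervals give what these replicates could resolve. For 51 of the 82 members the interval lay within 1 log2 unit of 0 on either side, and for 15 within 0.5. Complexes IV and V were the most tightly bounded: 15 of 16 tested genes of complex IV and 14 of 14 of complex V were within 1 unit, against 1 of 7 core subunits of complex I and 13 of 29 other subunits. Cox4i1 differed by 0.06 (interval -0.20 to 0.32), Atp5b by 0.02 (-0.28 to 0.32) and Ndufs7 by 0.01 (-0.71 to 0.73).

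The next step, from early neuroblast-like to differentiating neuron-like cells, also gave 0 called members by limma, against 4.74% of all genes tested. At an unadjusted p below 0.05 there were 8 members (9.76%, against 16.8% of all genes tested), 5 of them lower and 3 higher in differentiating neuron-like cells. Ndufa4, the common form of the complex IV subunit, had mean log2 levels of 8.73 and 8.85 in early neuroblast-like and 8.26 and 8.45 in differentiating neuron-like cells. The replicate means did not overlap, while the plate means did (8.48 to 9.29 against 8.12 to 8.55), and the difference of -0.44 (SE 0.168, adjusted p = 0.178) was seen on 6 of 6 plates but did not pass the threshold. On class-by-plate means with plate as a block Ndufa4 was called, with a difference of -0.482, the only alternative under which it was. For 45 of the 82 members the interval lay within 1 log2 unit of 0, and the median difference was -0.04 over the members and -0.02 over all genes. Over the genes found in at least 90% of cells the median was -0.043 for the members and -0.183 for all such genes.

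Between the ends of the sequence, differentiating neuron-like and otic epithelium-like cells, 3 members fell and 0 rose. The falls make up 3.66% of the 82 members, where 6.13% of all genes tested and 6.74% of the genes found in at least 90% of cells fell and 4.78% of all genes rose. The members' share rests on 3 genes, and its distance from the background was not tested. By role they were 2 of 29 other complex I subunits (Ndufs6 and Ndufa3), 0 of 7 core subunits, 1 of 14 complex V genes (Atp5c1), and 0 in the assembly factors and complexes II, III and IV. Over the members the median difference was -0.09, against -0.13 over all genes, and 51 of 82 intervals lay within 1 log2 unit of 0. Over the genes found in at least 90% of cells the median was -0.097 for the members and -0.202 for all such genes.

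Ndufs6 encodes a zinc-binding accessory subunit of complex I and lies at chr13:73319838-73328542 (minus strand). Its mean log2 level was 6.47 and 6.36 in replicates 1 and 2 of otic epithelium-like cells, 5.55 and 5.76 in early neuroblast-like cells, and 5.28 and 5.08 in differentiating neuron-like cells. Both neuronal classes lay below both otic epithelium-like values without overlap of these replicate means. Plate means of early neuroblast-like cells did overlap (6.18 on plate 2, beside 6.13 in otic epithelium-like cells on plate 4), and that difference was not called. The difference between the ends was -1.24 (SE 0.363, limma adjusted p = 0.0374), lower on 6 of 6 plates. Surface ectoderm-like cells (6.43 and 6.46) were near the otic epithelium-like level, and neural tube progenitor-like cells (4.95 and 5.44) near the neuronal one.

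Atp5c1 (chr2:10056016-10080510, minus strand) encodes the gamma subunit, the rotating shaft of ATP synthase. It stood at 7.82 and 8.09 in otic epithelium-like cells and at 6.80 and 7.49 in differentiating neuron-like cells, a difference of -0.81 (SE 0.242, limma adjusted p = 0.0409) and lower on 6 of 6 plates. The lowest plate mean, 5.01 on plate 3, rested on 6 cells, and without that plate the difference was -0.51 with an adjusted p of 0.268. Early neuroblast-like cells lay at 8.18 and 7.53, above the otic epithelium-like value in replicate 1 and below it in replicate 2.

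Ndufa3 (chr7:3617373-3620327, plus strand), a small membrane subunit of complex I, stood at 7.35 and 7.59 in otic epithelium-like cells and at 6.82 and 6.68 in differentiating neuron-like cells. The difference was -0.72 (SE 0.223, limma adjusted p = 0.0488), lower on 5 of 6 plates. These 3 calls were close to the threshold: Ndufs6, Atp5c1 and Ndufa3 lost it under 12, 12 and 16 of 23 alternatives, with adjusted p up to 0.511, 0.459 and 0.538, and kept their direction in all of them. Leaving out replicate 2 or plate 1, 2 or 6 ended the call of Ndufs6 (adjusted p of 0.0705 to 0.217). Leaving out either replicate or plate 1, 2, 3, 4 or 6 ended that of Atp5c1 (0.0503 to 0.268), and leaving out either replicate or plate 1, 2 or 5 ended that of Ndufa3 (0.053 to 0.538). In cells without a linked source well the differences were -1.01, -1.34 and -0.83, none of them called, and without the replicate block Ndufs6 alone was called (adjusted p of 0.0604 for Atp5c1 and 0.0838 for Ndufa3).

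**Figure D2:**
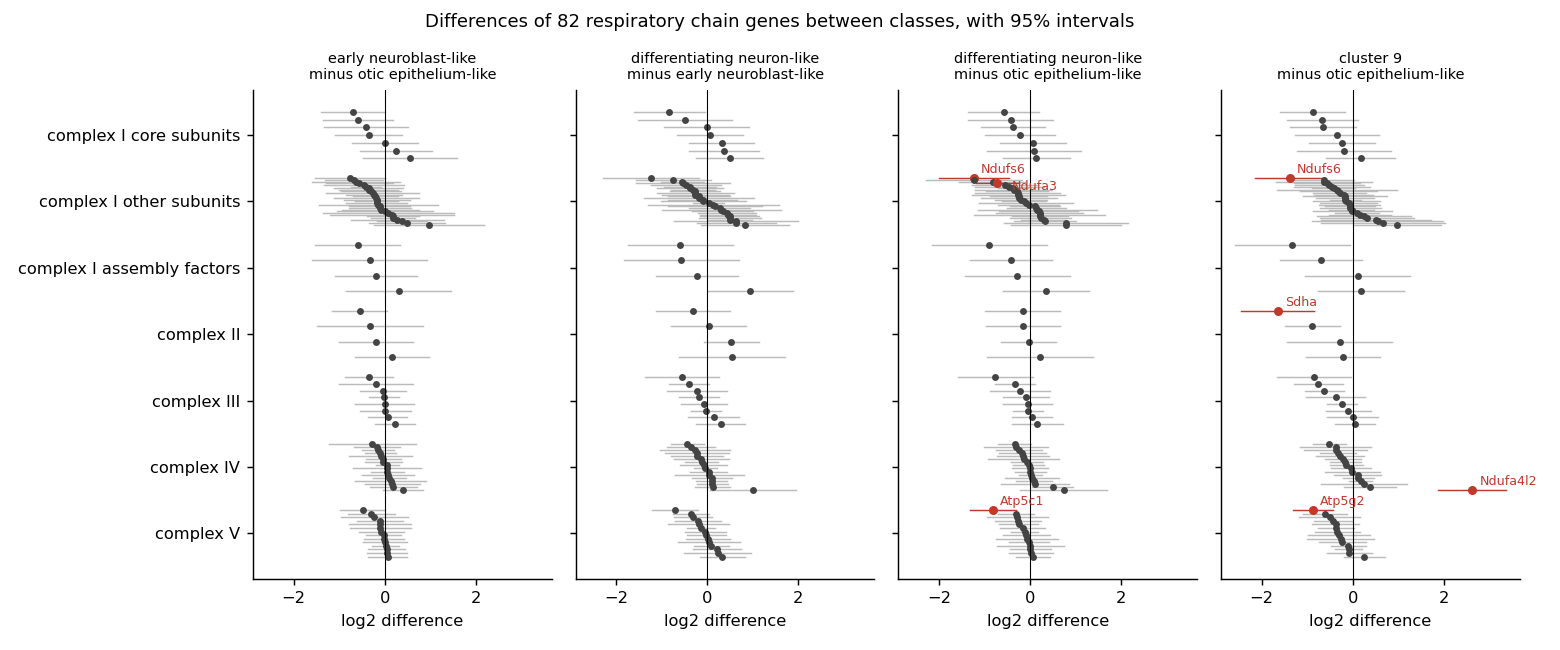
log2 differences of the 82 tested members (points) with 95% intervals (lines) in 4 comparisons, by role. Called members are red and named: 0 in the first 2 panels, 3 falls in the third, and 3 falls and 1 rise in the fourth.

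Cluster 9 had the largest log2 difference of a called member in the 5 comparisons made. Against otic epithelium-like cells 1 member rose and 3 fell, together 4.88% of the 82 members. Of all genes tested 4.47% rose and 7.83% fell, and of the genes found in at least 90% of cells 16% fell, so the members' share was again below the background. The member that rose was Ndufa4l2, a paralog of Ndufa4 known as a target of hypoxia-inducible factor. Those that fell were Sdha, the flavoprotein subunit of complex II that oxidises succinate, Atp5g2, a gene for the membrane ring of ATP synthase, and again Ndufs6. The median difference over the members was -0.21, and -0.18 over all genes tested. Over the genes found in at least 90% of cells the median was -0.235 for the members and -0.371 for all such genes.

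Ndufa4l2 (chr10:127514967-127517154, plus strand) had a mean FPKM of 36.6 in replicate 1 and 55.7 in replicate 2 of cluster 9. In otic epithelium-like cells it was 0.00783 and 0.853, in early neuroblast-like cells 1.19 and 0, and in differentiating neuron-like cells 0 and 1.19. The 2 cluster 9 values stood above every other class: the next highest single value was 9.92, in replicate 2 of surface ectoderm-like cells, whose other replicate stood at 0.0628. On the log2(FPKM + 1) scale the difference from otic epithelium-like cells was 2.63 (SE 0.353, limma adjusted p = 0.00014), higher on 5 of 6 plates. It was called under 21 of 22 alternatives, the exception being the 154 cells without a linked source well (2.29, adjusted p = 0.128).

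The gene was found in 27 of 59 cluster 9 cells (45.8%, exact 95% interval 32.7% to 59.2%). It was detected in 3 of the 140 cells of the otic epithelium-like class (2.14%), 1 of 36 early neuroblast-like cells (2.78%), 4 of 47 differentiating neuron-like cells (8.51%) and 5 of 126 neural tube progenitor-like cells (3.97%). The shares next below cluster 9 were 6 of 41 surface ectoderm-like cells (14.6%) and 3 of 23 mesenchyme-like cells (13%), and cluster 3 had 0 of 19. Within cluster 9 the gene varied by plate, at 2 of 10, 9 of 13, 0 of 6, 3 of 8, 4 of 7 and 9 of 15 cells with it on plates 1 to 6. Among cells without a linked source well it was found in 7 of 17 cluster 9 cells (41.2%), 1 of 12 early neuroblast-like cells, and 0 of 42 otic epithelium-like and 0 of 13 differentiating neuron-like cells, which allow shares of up to 7.14% and 23.1%. Intervals and such limits cover counting error only. In the other classes, 3 of 15 surface ectoderm-like (20%), 1 of 39 neural tube progenitor-like, 0 of 7 mesenchyme-like and 0 of 9 cluster 3 cells without such a well had it.

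Cluster 9 was also compared with the differentiating neuron-like class, a comparison added after seeing the data. Ndufa4l2 was higher by 2.52 (SE 0.353, limma adjusted p = 0.000689) and Atp5g2 differed by -0.85 (SE 0.207, adjusted p = 0.0486), the 2 members called of 82. Of all genes tested 0.806% rose and 1.01% fell, and of the genes found in at least 90% of cells 1.73% fell, so 1 member in each direction is near the background. The Ndufa4l2 call was lost without replicate 2 (1.67, adjusted p = 0.0977), without plate 2 (1.86, adjusted p = 0.0806) and in cells without a linked source well (2.29, adjusted p = 0.28). The Atp5g2 call was lost under 17 of 23 alternatives, leaving out either replicate or any 1 plate among them (adjusted p of 0.0629 to 0.338). Of 7 endothelial markers 4 were found in cluster 9, with a summed FPKM of 5.07 and 10.99, below the 14.3 and 12.39 of otic epithelium-like cells.

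Sdha (chr13:74322254-74350280, minus strand) moved the other way. It stood at 4.41 and 5.15 in cluster 9, at 6.32 and 6.53 in otic epithelium-like cells, at 6.78 and 6.395 in early neuroblast-like cells and at 6.11 and 6.44 in differentiating neuron-like cells. Both cluster 9 values were below those of every other class and replicate. The difference from otic epithelium-like cells was -1.65 (SE 0.380, limma adjusted p = 0.00883), lower on 6 of 6 plates, and it was called under 20 of 23 alternatives. The call was lost with the number of genes found as a covariate (-1.22, adjusted p = 0.129), in the cells with a middling number of genes found (-1.33, adjusted p = 0.1) and in the cells without a source well (-1.83, adjusted p = 0.281). Against differentiating neuron-like cells Sdha differed by -1.50 (adjusted p = 0.062), lower on 6 of 6 plates. Sdhd, a membrane anchor of the same complex, differed from otic epithelium-like cells by -0.89 (SE 0.285, adjusted p = 0.0526).

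Atp5g2 (chr15:102662864-102672352, minus strand) is 1 of 3 genes, with Atp5g1 and Atp5g3, that encode the same mature ring subunit of ATP synthase with different import sequences. Its mean log2 level was 6.54 and 6.44 in cluster 9 and 7.24 and 7.49 in otic epithelium-like cells, a difference of -0.87 (SE 0.207, limma adjusted p = 0.0106). In cluster 9 it contributed 54.9% and 54% of the summed FPKM of Atp5g1 and Atp5g2, and 59% and 57.6% in otic epithelium-like cells. The call was lost under 7 of 23 alternatives: without replicate 1 or 2 (adjusted p of 0.07 and 0.158), without plate 6 (-0.57, adjusted p = 0.0821), on the log2 of the mean FPKM (-0.42, adjusted p = 0.127), in the cells with a middling number of genes found (-0.515, adjusted p = 0.257), with genes found as a covariate (adjusted p = 0.077) and in wells with no linked source (adjusted p = 0.146). Ndufs6 stood at 5.35 and 4.72 in cluster 9, a difference of -1.38 (SE 0.363, limma adjusted p = 0.0191), lower on 6 of 6 plates. Its call was lost under 6 of 23 alternatives. Without replicate 2 the difference was -1.09 (adjusted p = 0.244), and without plate 1 or 2 the adjusted p was 0.062 and 0.0608. It was -0.78 (adjusted p = 0.284) with genes found as a covariate, -1.59 (adjusted p = 0.082) in the cells with a middling number of genes found and -0.85 (adjusted p = 0.54) in wells with no linked source.

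**Figure D3:**
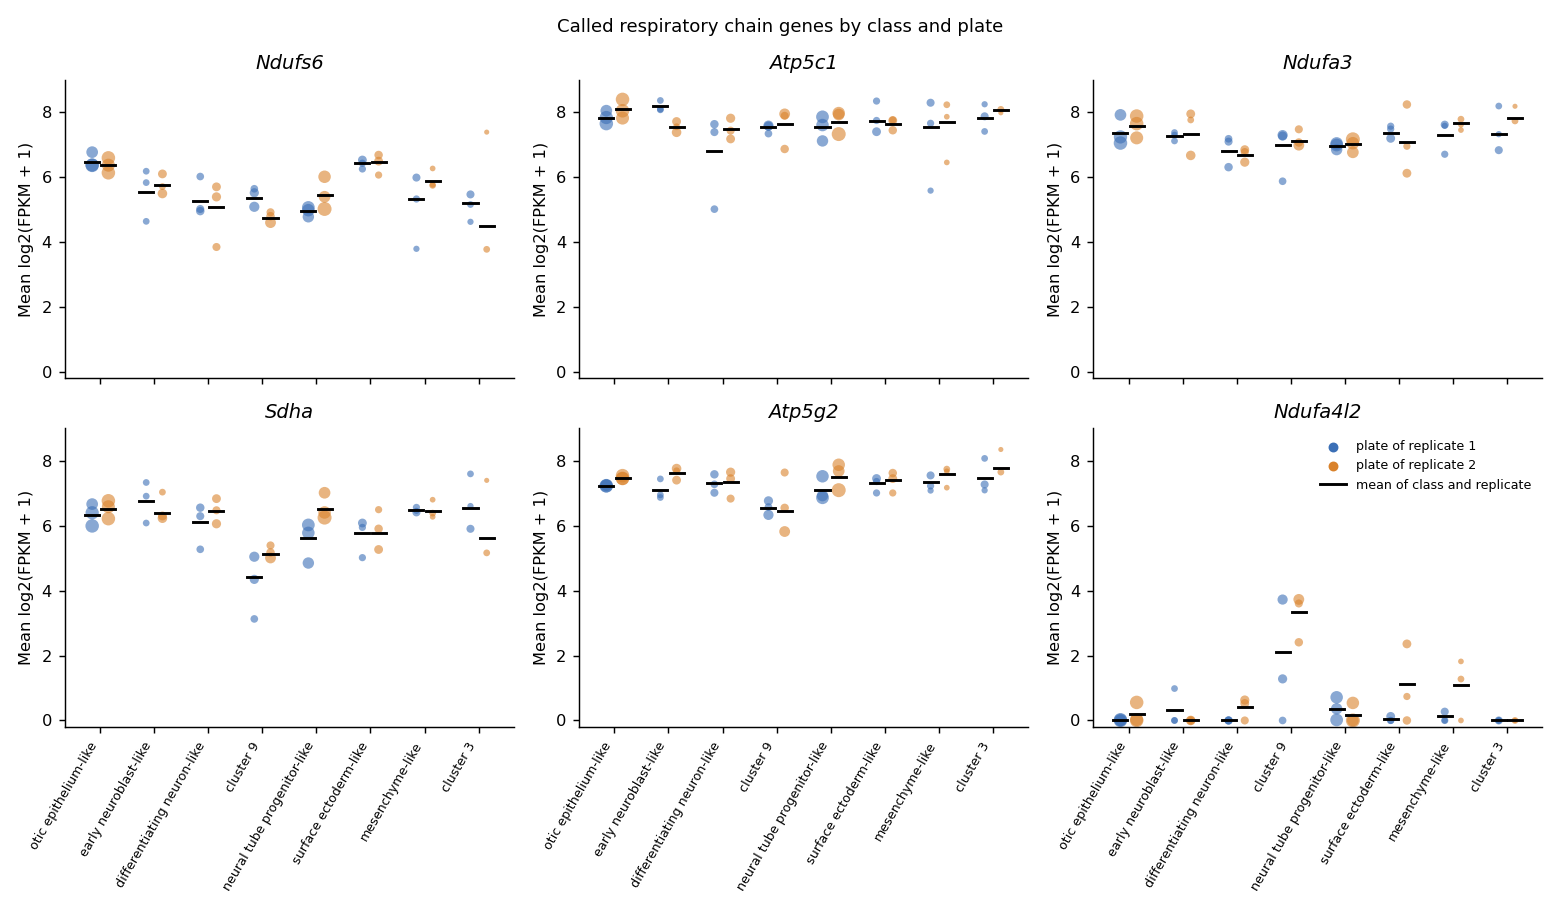
Mean log2(FPKM + 1) of the 6 called members by class. Points are plates, sized by their number of cells and coloured by replicate, and bars are class-by-replicate means: Ndufa4l2 reached 2.11 and 3.35 in cluster 9, and Sdha was lowest there at 4.41 and 5.15.

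The paired forms of complex IV were used unequally in all classes. Cox4i1, Cox6a1, Cox6b1, Cox7a2 and Cox8a, the common forms, were found in 99.39% to 100% of cells, while 8 minor members were found in under 20% of cells, all of them in complex IV. Cox6a2 and Cox8c, known from muscle and testis, were listed at 0 in all 491 cells, which allows a share of up to 0.611%. These 2 and the further minor forms Cox7b2 (3 cells) and Cox8b (7 cells) were too rare to test. Of the 7 cells with Cox8b, 5 were in cluster 9, and 1 of these had no linked source well.

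Cox4i2, the form of subunit 4 known from lung and from low oxygen, was found in 12 of 41 surface ectoderm-like cells (29.3%, exact 95% interval 16.1% to 45.5%) and in 2 of 126 neural tube progenitor-like cells (1.59%, 0.193% to 5.62%). It was 1.08% and 0.713% of the summed FPKM of Cox4i1 and Cox4i2 in surface ectoderm-like cells, and at most 1.2%, in replicate 2 of cluster 9, in any class and replicate. Cox6b2, known from testis, was found in 36.6% of surface ectoderm-like, 34.8% of mesenchyme-like and 7.14% of neural tube progenitor-like cells. Cox7a1, the heart and muscle form, was found in 5 of 19 cells of cluster 3 (26.3%), 11 of 47 differentiating neuron-like cells (23.4%), in 1 of 36 early neuroblast-like cells (2.78%) and in 0 of 41 surface ectoderm-like cells, which allows up to 7.32%. Its difference between differentiating neuron-like and early neuroblast-like cells was 1.01 (SE 0.447, limma adjusted p = 0.266), higher on 6 of 6 plates. Cox7a1 passed under 2 alternatives of that comparison (on plate means with plate as a block and without replicate 1) and under 3 of differentiating neuron-like against otic epithelium-like cells (weights by number of cells, genes found as a covariate and without replicate 1). The shares in the other classes carry counting intervals and no test. In cells without a linked source well, Cox4i2 was found in 4 of 15 surface ectoderm-like and 0 of 39 neural tube progenitor-like cells. Cox6b2 was found there in 4 of 15 surface ectoderm-like, 1 of 7 mesenchyme-like and 2 of 39 neural tube progenitor-like cells. Cox7a1 was found there in 4 of 9 cells of cluster 3, 2 of 13 differentiating neuron-like, 0 of 12 early neuroblast-like and 0 of 15 surface ectoderm-like cells.

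**Figure D4:**
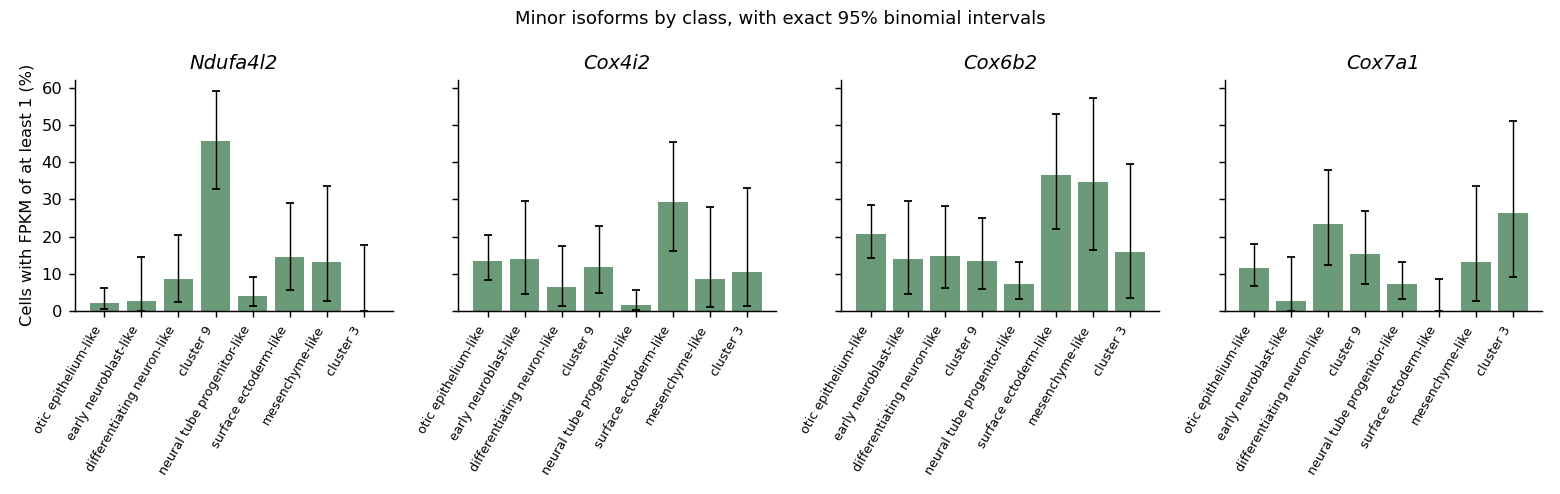
Share of cells with an FPKM of at least 1 for 4 minor forms of complex IV subunits, by class, with exact 95% binomial intervals. Ndufa4l2 stands out in cluster 9 (45.8%), Cox4i2 and Cox6b2 are highest in surface ectoderm-like cells (29.3% and 36.6%), and Cox7a1 is listed at 0 in that class.

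Genes that feed or surround the chain were read from lists of related enzymes, and the largest change among those named was in Ldhb. In the step to early neuroblast-like cells 2 of 18 tested glycolysis genes fell and 0 rose, where 3.67% of all genes tested were called. The share of this list rests on 2 genes, and its distance from the background was not tested. Ldhb, the lactate dehydrogenase subunit that favours use of lactate, had mean log2 levels of 8.14 and 8.497 in otic epithelium-like cells, 5.26 and 5.08 in early neuroblast-like cells and 4.37 and 4.25 in differentiating neuron-like cells. It was lower by 3.15 (SE 0.29, limma adjusted p = 1.63e-05) in early neuroblast-like and by 4.01 (SE 0.29, adjusted p = 3.41e-07) in differentiating neuron-like cells, and the calls were kept under all 22 and all 23 alternatives run. Otic epithelium-like cells had the highest Ldhb of all classes. Neural tube progenitor-like cells (5.61 and 5.09) were near the early neuroblast-like level. Cluster 9 (6.02 and 6.31) lay 1.86 above differentiating neuron-like cells (SE 0.29, limma adjusted p = 0.002), a call kept under 19 of 23 alternatives. Its level was below the otic epithelium-like one by 2.15 (adjusted p = 0.000142). Ldha, the partner subunit of Ldhb, named after its values were seen, stood at 9.11 and 8.97 in otic epithelium-like, 9.31 and 8.91 in early neuroblast-like, and 9.15 and 9.07 in differentiating neuron-like cells. Its difference between the ends was 0.07 (interval -0.36 to 0.51). Gapdh, a central glycolytic enzyme, fell by 1.004 (SE 0.17, limma adjusted p = 0.000806) between the ends. That call was kept under 22 of 23 alternatives, the exception being the cells without a linked source well.

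Of 19 tested genes of the tricarboxylic acid cycle and pyruvate dehydrogenase, 2 fell and 0 rose between otic epithelium-like and differentiating neuron-like cells. Of all genes tested 10.9% were called there, so the count for this list is near the background. Suclg2, the GTP-specific subunit of succinyl-CoA ligase, stood at 3.62 and 4.55 in otic epithelium-like, 2.93 and 3.29 in early neuroblast-like, 1.28 and 1.11 in differentiating neuron-like cells and 1.13 and 0.37 in cluster 9. The groups at the ends did not overlap, and the fall was 2.89 (SE 0.483, limma adjusted p = 0.000725) in differentiating neuron-like cells and 3.34 (adjusted p = 0.000234) in cluster 9. Both calls were lost without replicate 2. That in differentiating neuron-like cells was also lost in the cells without a linked source well and in those with a middling number of genes found. Sucla2, the ATP-specific subunit, also named after its values were seen, stood at 5.91 and 5.15, 6.43 and 5.93, 6.12 and 4.95, and 5.33 and 5.01 in the same order. Its difference between the ends was 0.01 (interval -1.12 to 1.14).

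Among 19 tested companions of the chain, such as carriers and electron donors, 2 rose and 1 fell between otic epithelium-like and differentiating neuron-like cells. That is 15.8% called, against 10.9% of all genes tested. Slc25a4, an exchanger of ATP and ADP across the inner membrane, stood at 9.02 and 8.93 in otic epithelium-like cells, 9.09 and 8.86 in early neuroblast-like cells and 9.56 and 9.55 in differentiating neuron-like cells. It rose by 0.58 from either class (SE 0.125, limma adjusted p = 0.00525 and 0.0122). Atpif1, the inhibitor of ATP synthase, stood at 8.35 and 8.37, 8.12 and 8.25, and 8.72 and 9.05, and rose by 0.70 from early neuroblast-like cells (SE 0.147, adjusted p = 0.0115). These calls were lost without replicate 2 and in the cells without a linked source well. That of Slc25a4 against early neuroblast-like cells was also lost without replicate 1 or plate 3, and that against otic epithelium-like cells at resolution 0.7. The Atpif1 call was also lost in the cells with a middling number of genes found. Nubpl, an assembly factor of complex I outside the symbol rule, fell by 1.19 (SE 0.358, adjusted p = 0.0424) between the ends. That call was lost without either replicate or plate 1, 2 or 4, and in the cells without a linked source well. It was also lost without the replicate block, on the log2 of the mean FPKM, with genes found as a covariate and in the cells with a middling number of genes found.

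Of 13 tested genes of fatty acid oxidation 3 fell between the same classes (23.1% called, against 10.9% of all genes tested). Among them were Eci1, which fell by 2.32 (SE 0.425, limma adjusted p = 0.00158), and Hadh, by 2.16 (SE 0.576, adjusted p = 0.0221). Both calls were lost without replicate 2 and in the cells without a linked source well. That of Hadh was also lost without plate 3, with no filter on low values, with genes found as a covariate and in the cells with a middling number of genes found. Of 76 genes of the mitochondrial ribosome 0 were called by limma, with 8 at an unadjusted p below 0.05, and of 10 tested regulators of mitochondrial biogenesis 0 were called, with 1 at an unadjusted p below 0.05, where 22.1% of all genes tested were below it. Of 77 genes of the cytosolic ribosome 8 fell and 0 rose, with a median difference of -0.34. In cluster 9 against otic epithelium-like cells 31 of 77 fell, with a median of -0.54. Of all genes tested 6.13% fell in the first of these comparisons and 7.83% in the second. Of the genes found in at least 90% of cells 6.74% and 16% fell. The respiratory chain members in these comparisons had medians of -0.09 and -0.21. These lists were described by count and median beside the members, and no test of one list against another was made.

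**Figure D5:**
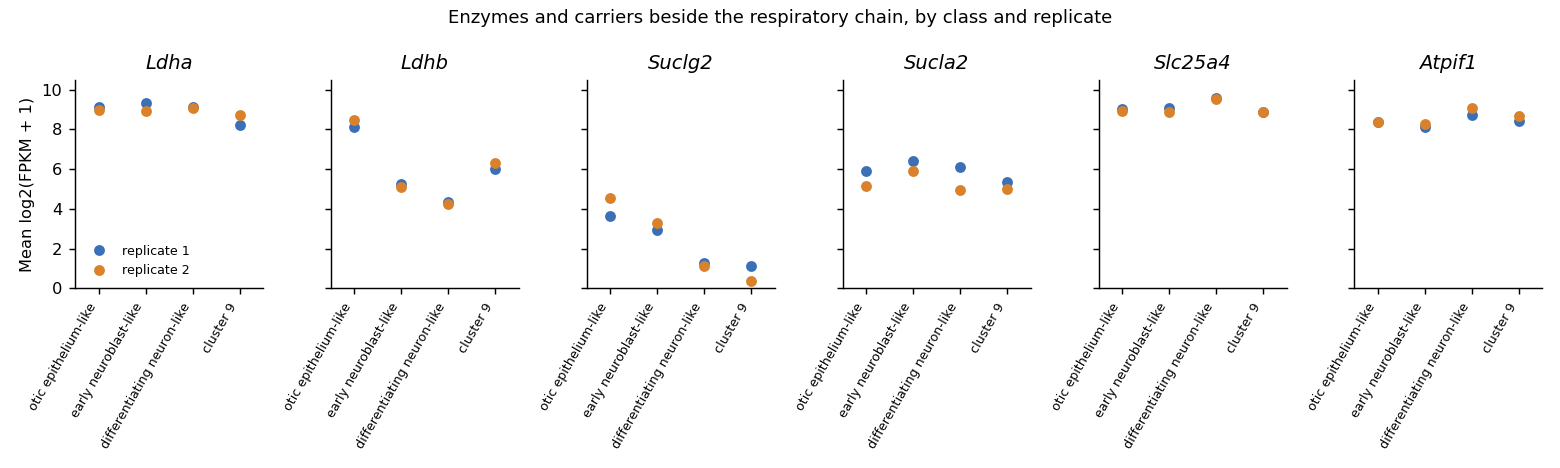
Mean log2(FPKM + 1) of 6 genes that are not members, in 4 classes. Each point is a class-by-replicate mean: Ldhb and Suclg2 fall from 8.14 and 8.497, and 3.62 and 4.55, in otic epithelium-like cells to 4.37 and 4.25, and 1.28 and 1.11, in differentiating neuron-like cells, while Ldha and Sucla2 are shown for comparison.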

How the data were processed

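The authors deposited 1 table with a column for each cell. Per the submitters' processing notes, Bowtie, Bowtie2, TopHat and Cufflinks were used on mm10, beside FastQC, cutadapt and SAMtools, with no versions given. The values the authors deposited were read as log2(FPKM + 1): after undoing the log, 99.69% were numbers of 6 significant digits to a relative tolerance of 1e-07. Identifiers were matched to GENCODE M21 for 19630 of 19659 rows, and 132 rows of repeated identifiers and 33 rows with no symbol of their own were left out.

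Of 106 listed markers the 87 found in at least 1% of cells were reduced to 15 principal components and clustered (Leiden, 15 neighbours, resolution 1.0, scanpy 1.11.5). Doublets were not called. One marker used here is not reported. Mean log2(FPKM + 1), pseudocount 1, per class and replicate was fitted with limma 3.58.1 (class and replicate, with a trend) in classes of at least 5 cells per replicate, for genes that reached 1 FPKM in 5% of cells or more, marker genes left out. The classes were made from the same cells, which the p-values do not allow for. The fit was tested on simulated data. Rows of wells were linked where the excess sharing of rare transcripts was above 0.08, a threshold set after seeing a gap between 0.059 and 0.103.

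Replicate numbers came from the titles. Deviations of same-numbered means correlated by -0.016 to 0.096 over 28 pairs of classes. Named genes were the called members with the same sign in both replicates, the highest and lowest member of each role, the paired isoforms, and up to 3 called genes of each other list. The members and lists were chosen with earlier results of these data known.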

Additional observations from a re-analysis of the deposited data

Results flagged for a closer look

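Plate means of the called members in 4 classes, and of the members' mean level and share of FPKM in 8 classes, were examined in 40 groups of plates, using plates with at least 3 cells of the class, and 4 groups held a plate far from the others. Chance flags about 1 in 20 groups. Atp5c1 in differentiating neuron-like cells had a mean log2 level of 5.01 on plate 3 (6 cells), below the other 5 plates. Ndufa3 in cluster 9 had 5.87 on plate 3. Ndufa4l2 in otic epithelium-like cells had 0.556 on plate 5, where all 3 cells of that class with the gene were found, and Ndufa4l2 in early neuroblast-like cells had 0.984 on plate 1, from 1 cell of 4. No explanation of these plates was tested.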

How the results depend on the processing

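No member's call changed direction under the alternatives run, and every member's call was lost under at least 1 of them. Early neuroblast-like minus otic epithelium-like cells gave 0 called members throughout, where 0.855% to 7.34% of all genes tested were called. Differentiating neuron-like minus early neuroblast-like gave 1 called member with the log2 of averaged FPKM, with genes found as a covariate and at resolution 1.4, 3 with plate means, and 0 to 2 on leaving out a replicate or plate. Of all genes tested 4.74% were called there in the main fit and 9.4% with plate means. Differentiating neuron-like minus otic epithelium-like (3) gave 1 without the replicate block, with a pseudocount of 0.1, with no filter, with either scaling of cells, at resolution 0.7 and without cells of another type, 9 with weights, 0 in the cells between the quartiles of genes found and in wells without a source well, and 0 to 3 on leaving out a replicate or plate. Cluster 9 minus otic epithelium-like (4) gave 7 with upper-quartile scaling, 8 with plate means, 15 with weights, 12 and 9 at resolutions 0.7 and 1.4, 1 in the cells between the quartiles and in wells without a source well, and 2 to 8 on leaving out a replicate or plate. Cluster 9 minus differentiating neuron-like (2, added after seeing the data) gave 1 without the block, with the log2 of the mean, pseudocount 0.1, either scaling, the cells between the quartiles and the covariate, 0 with the 20% filter and in wells without a source well, 3 with no filter, plate means, weights, either resolution and without cells of another type, and 0 to 2 on leaving out a replicate or plate. Of all genes tested 1.82% were called there in the main fit, 3.63% with plate means and 4.05% with weights. The causes were not tested.

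Differences of the mean member level moved from -0.086 to 0.028 (wells without a source well) and 0.008 (cells between the quartiles) for early neuroblast-like cells, from -0.116 to 0.011 (wells without a source well) for differentiating neuron-like cells, and from -0.187 to 0.015 (log2 of the mean), -0.149 (FPKM scaled to an equal sum), -0.148 (wells without a source well) and -0.097 (cells between the quartiles) for cluster 9, each against otic epithelium-like cells. No correlation of same-numbered deviations passed 0.1, which does not show that the numbers leave the replicates unpaired. The mean member level was higher in replicate 2 than in replicate 1 in every class. The fit without the block called 0, 0, 1, 4 and 1 members in the 5 comparisons. At resolution 0.7 no early neuroblast-like class remained. A comparison of hindbrain neuron-like with neural tube progenitor-like cells was not run, since no cluster led with those markers. Depth in reads is unknown, and few cells per class and plate limit the rarer members.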
